A study of Mus musculus with 31 samples.

Results

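The Nrl transgene was examined in retinas of 28-day-old mice whose Rorb genes were intact, by setting the 3 retina samples labelled P28 +/+;CrxpNrl against the 4 labelled P28 +/+. These are 7 of the 31 samples of the series, chosen by their labels alone. Each sample was both retinas of 1 mouse, snap frozen, and its total RNA was labelled and read on 1 Affymetrix array. The 2 groups share age and an unmutated Rorb, and differ in the transgene named CrxpNrl, in which the Crx promoter drives Nrl in photoreceptors. The series also holds P14 samples (4 +/+;CrxpNrl and 4 +/+) and P28 samples without Rorb (4 Rorb-/-;CrxpNrl and 4 Rorb-/-). The rest are P14 samples without Rorb (4 Rorb-/-;CrxpNrl and 4 Rorb-/-). No strain or sex was given.

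Rods serve vision in dim light and cones serve vision in bright light and colour vision, and both arise from precursors that express the homeobox factor Crx. Nrl, a leucine zipper transcription factor, directs such precursors to the rod fate, and mice without it make cone-like cells in place of rods. Rorb, an orphan nuclear receptor, acts upstream of Nrl. In the mouse, expressing Nrl from the Crx promoter in all photoreceptor precursors is known to give a retina rich in rods and lacking cones.

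Levels are deposited RMA values on a log2 scale, so a log2 difference of -1 is a 2-fold lower signal. RMA levels of different genes come from different probes and were not set against each other. Over the 7 arrays the lower quartile of all probe sets lay between 4.01 and 4.05 and the maximum between 14.2 and 14.3, so the usable range had a floor near the first and a ceiling near the second. The medians lay between 5.84 and 5.87, the arrays correlated pairwise with r between 0.988 and 0.993, and 0 pairs were identical. A difference was called at a Benjamini-Hochberg adjusted p under 0.05 by limma, over all 18193 genes. Retinal markers were present in all 7 mice: Gnat1, the rod transducin, had log2 levels between 13.94 and 14.03, and Glul, the glutamine synthetase of Müller glia, between 12.82 and 13.06.

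Cone genes were lower in P28 +/+;CrxpNrl retinas than in P28 +/+ retinas, and few other genes were called. Of 18193 genes, 36 (0.198%) were called lower and 4 (0.022%) higher. Those called and at least 2-fold changed were 21 lower (0.115%) and 0 higher. Of these 21 genes, 13 were on the 2 cone gene lists and 8 on none of the 28 lists. The samples of the 2 groups did not overlap in any of the 40 called genes, against 10.8% of all genes without overlap. These 40 were picked by a test on the same values, which favours such separation, so it adds no support. At an unadjusted p under 0.05 the count over all genes was 1678, or 9.22%, and the median log2 difference over all genes was -0.01. In bulk retina, fewer cones and less cone RNA per cell cannot be told apart.

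**Figure D1:**
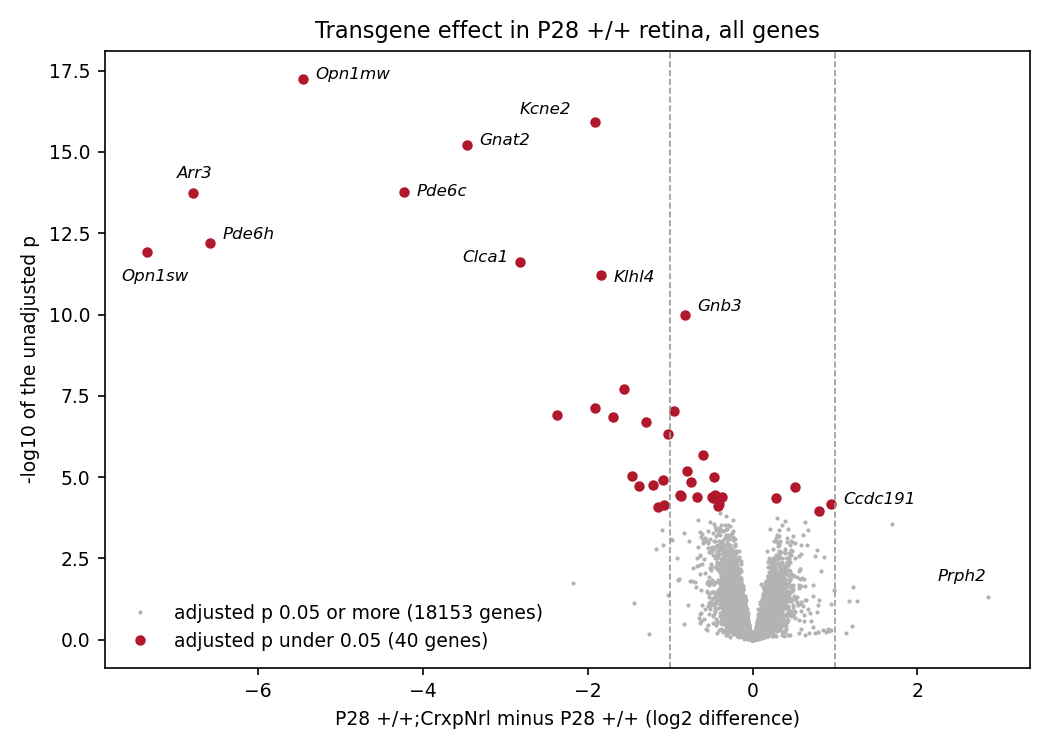
Each point is a gene, with the log2 difference (P28 +/+;CrxpNrl minus P28 +/+) across and -log10 of the unadjusted limma p up. Red points are the 40 genes with an adjusted p under 0.05, dashed lines mark a 2-fold change, and the points at the far left are cone phototransduction genes, while no called gene lies beyond 2-fold on the right.

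All 9 measured members of the cone phototransduction list were called lower in P28 +/+;CrxpNrl retinas, where 0.198% of all genes were. Their median log2 difference was -4.23, and Cnga3, the other written member, was not analysed here. The mean log2 level over the list lay between 5.88 and 6.11 in P28 +/+;CrxpNrl mice and between 10.06 and 10.23 in P28 +/+ mice.

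Of the visual pigments, Opn1sw came to near the floor of the arrays and Opn1mw to levels close to the array medians. Opn1sw, the short-wavelength cone opsin, had log2 levels of 4.90, 5.24 and 4.51 in P28 +/+;CrxpNrl mice, against 12.26, 12.44, 12.03 and 12.22 in P28 +/+ mice. The highest mouse with the transgene lay far below the lowest mouse without it, and the log2 difference was -7.35 ± 0.60 (SE, limma adjusted p = 3.16e-09), 164-fold. Opn1mw, the medium-wavelength cone opsin, had log2 levels of 5.94, 5.55 and 5.60 in P28 +/+;CrxpNrl mice, against 11.28, 11.12, 10.93 and 11.30 in P28 +/+ mice. Its groups were as clearly apart, with a log2 difference of -5.46 ± 0.27 (SE, limma adjusted p = 1.03e-13). RMA levels are compressed near the floor, so folds read there may be too small.

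The parts that carry the signal onward fell with the opsins. Gnat2, the alpha subunit of cone transducin, had log2 levels of 7.71, 7.75 and 7.95 in P28 +/+;CrxpNrl mice, against 11.23, 11.29, 11.30 and 11.26 in P28 +/+ mice. Its log2 difference was -3.47 ± 0.21 (SE, limma adjusted p = 3.67e-12), an 11.1-fold lower signal that still stood well above the floor. Pde6c, the catalytic subunit of the cone phosphodiesterase, had log2 levels of 5.69, 5.95 and 5.44 in P28 +/+;CrxpNrl mice, against 10.10, 10.10, 10.23 and 9.24 in P28 +/+ mice, 18.7-fold lower (limma adjusted p = 6.58e-11). Pde6h, the inhibitory subunit of that enzyme, had log2 levels of 4.80, 4.57 and 4.97 in P28 +/+;CrxpNrl mice, against 11.44, 11.45, 11.57 and 11.02 in P28 +/+ mice, 96.3-fold lower (limma adjusted p = 1.98e-09). Both phosphodiesterase subunits were thus separated between the groups in every mouse. Arr3, the cone arrestin that ends the opsin's activity, had log2 levels of 4.33, 4.48 and 4.44 in P28 +/+;CrxpNrl mice, against 11.12, 11.28, 11.20 and 11.23 in P28 +/+ mice. Its log2 difference was -6.79 ± 0.47 (SE, limma adjusted p = 6.58e-11), 111-fold, and its 3 probe sets gave log2 differences of -6.79, -5.79 and -2.85.

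Smaller falls were measured in 3 members. Cngb3, the beta subunit of the ion channel that closes when a cone is lit, had log2 levels of 5.81, 6.45 and 5.73 in P28 +/+;CrxpNrl mice, against 7.47, 7.88, 7.73 and 7.65 in P28 +/+ mice (limma adjusted p = 0.000172). Gnb3, the beta subunit of cone transducin, which bipolar cells also express, had log2 levels of 10.31, 10.50 and 10.36 in P28 +/+;CrxpNrl mice, against 11.11, 11.25, 11.24 and 11.24 in P28 +/+ mice. It stayed at a high level with the transgene, with a log2 difference of -0.82 ± 0.08 (SE, limma adjusted p = 1.84e-07). Gngt2, the gamma subunit of cone transducin, had log2 levels of 4.34, 4.46 and 3.96 in P28 +/+;CrxpNrl mice, against 5.25, 5.22, 5.42 and 5.42 in P28 +/+ mice, a difference of -1.07 ± 0.23 (SE, limma adjusted p = 0.0359). With the replicate number as a block its limma adjusted p was 0.170 over all arrays and 0.0437 in only the compared groups. Gngt2 lost the call when any 1 of the 7 mice was left out (limma adjusted p between 0.0603 and 0.363). The other 8 genes of the list kept the call without any 1 mouse.

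**Figure D2:**
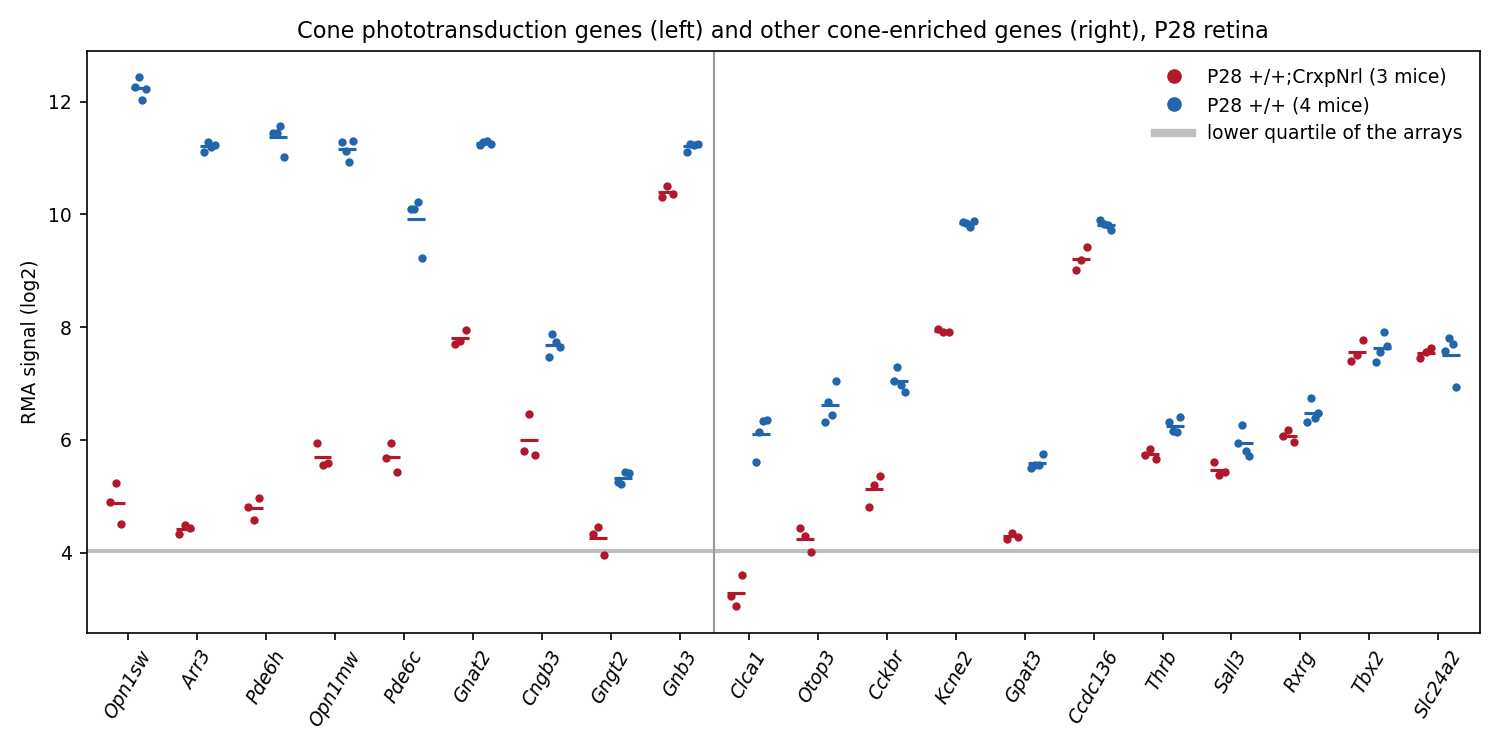
The log2 RMA level of each gene of the 2 cone lists is shown with 1 point per mouse, 3 P28 +/+;CrxpNrl mice (red) left of 4 P28 +/+ mice (blue), a bar at each group mean and a grey line at the lower quartile of the arrays. Opn1sw, Arr3 and Pde6h sit near the grey line with the transgene and above 11 without it, while Tbx2 and Slc24a2 overlap between the groups.

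Promoter sequence is shown for 5 cone genes with large falls, 3 that hold the letters searched for and 2 that do not, since Crx and Nrl are known to act through short sites near the start of photoreceptor genes. Sequences are from RefSeq (GRCm38.p6), from 250 bases before to 50 bases after each gene's start, in which 16 of the 21 genes that fell at least 2-fold had an entry. Pde6c, Clca1, Cngb3, Gulo and Gngt2 are named only. The windows are chr6:29380464-29380763 on the minus strand for Opn1sw, chrX:100605247-100605546 on the plus strand for Arr3, chr3:108092816-108093115 on the plus strand for Gnat2, chr6:136954273-136954572 on the plus strand for Pde6h and chrX:74127216-74127515 on the plus strand for Opn1mw, written 5′ to 3′ along the gene. Capitals mark the core of the Crx and Otx site, TAATC or its reverse complement GATTA.
Opn1sw: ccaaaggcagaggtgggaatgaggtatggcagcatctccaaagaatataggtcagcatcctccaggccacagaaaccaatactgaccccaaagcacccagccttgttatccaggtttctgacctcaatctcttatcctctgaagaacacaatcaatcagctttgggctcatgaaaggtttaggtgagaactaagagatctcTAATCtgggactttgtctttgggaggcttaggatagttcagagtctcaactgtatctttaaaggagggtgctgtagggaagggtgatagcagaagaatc
Arr3: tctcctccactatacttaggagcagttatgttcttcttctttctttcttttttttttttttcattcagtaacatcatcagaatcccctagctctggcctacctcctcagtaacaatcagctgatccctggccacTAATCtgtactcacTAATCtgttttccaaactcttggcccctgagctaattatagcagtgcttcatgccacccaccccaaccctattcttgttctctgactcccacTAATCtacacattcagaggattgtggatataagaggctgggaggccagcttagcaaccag
Gnat2: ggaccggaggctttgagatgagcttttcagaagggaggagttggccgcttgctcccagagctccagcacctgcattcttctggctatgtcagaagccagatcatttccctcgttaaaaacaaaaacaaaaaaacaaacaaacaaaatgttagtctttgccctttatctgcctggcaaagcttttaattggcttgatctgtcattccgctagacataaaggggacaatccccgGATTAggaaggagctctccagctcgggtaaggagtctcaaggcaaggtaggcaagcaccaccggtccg
Pde6h: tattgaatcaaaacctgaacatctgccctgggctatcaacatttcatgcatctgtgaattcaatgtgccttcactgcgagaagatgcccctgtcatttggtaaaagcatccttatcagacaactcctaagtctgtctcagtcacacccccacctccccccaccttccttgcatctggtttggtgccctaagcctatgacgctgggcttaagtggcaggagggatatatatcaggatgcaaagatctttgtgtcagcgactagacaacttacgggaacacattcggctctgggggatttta
Opn1mw: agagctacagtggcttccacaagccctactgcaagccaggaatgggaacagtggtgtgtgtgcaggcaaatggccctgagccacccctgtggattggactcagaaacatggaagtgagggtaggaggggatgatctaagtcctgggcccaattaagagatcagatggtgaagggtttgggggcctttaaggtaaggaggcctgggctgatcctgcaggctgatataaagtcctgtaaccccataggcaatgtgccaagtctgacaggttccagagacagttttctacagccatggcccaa
The match in Opn1sw lay 49 bases before the start, those in Arr3 116, 102 and 10 bases before it, and that in Gnat2 18 bases before it, while the windows of Pde6h and Opn1mw held none of the motifs searched. TAATC on either strand was found in a promoter of 10 of the 16 genes (62.5%), Opn1sw, Arr3, Gnat2, Otop3, Kcne2, Gzmm, Erich6, Ccl9, Gckr and Tecrl, and in 22.4% of the 17492 genes with a promoter entry. The longer TAATCC, which contains TAATC, was in 3 of the 16 (Gnat2, Otop3 and Gzmm), and in 7.56% of all genes. TGCTGA on either strand, the core of an Nrl site, was in 3 (Opn1sw, Klhl4 and Gzmm), or 18.8%, beside 20.5% of all genes. AGGTCA on either strand, the site of many nuclear receptors, was in a promoter of the same 3 genes, beside 16.7% of all genes, and in Gzmm it was in another promoter than TGCTGA. These matches describe letters in a 300-base window, with no test.

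Cone-enriched genes outside phototransduction moved less evenly: 6 of 11 were called lower, 0 higher, and the median log2 difference was -0.60. Clca1, of the family of chloride channel regulators, had log2 levels of 3.22, 3.05 and 3.60 in P28 +/+;CrxpNrl mice, against 5.60, 6.14, 6.34 and 6.35 in P28 +/+ mice (log2 difference -2.82 ± 0.24, SE, limma adjusted p = 5.35e-09). Its levels with the transgene were below the lower quartile of the arrays, and the mean of its 2 probe sets gave a log2 difference of -1.35. Kcne2, an accessory subunit of potassium channels, had log2 levels of 7.97, 7.91 and 7.92 in P28 +/+;CrxpNrl mice, against 9.87, 9.85, 9.77 and 9.89 in P28 +/+ mice. The spread within each group was small beside the log2 difference of -1.91 ± 0.11 (SE, limma adjusted p = 1.10e-12). Otop3, of the otopetrin family of proton channels, had log2 levels of 4.43, 4.29 and 4.02 in P28 +/+;CrxpNrl mice, against 6.31, 6.67, 6.44 and 7.05 in P28 +/+ mice. Cckbr, a receptor for the peptide cholecystokinin, had log2 levels of 4.81, 5.20 and 5.35 in P28 +/+;CrxpNrl mice, against 7.04, 7.29, 6.97 and 6.84 in P28 +/+ mice. Neither Otop3 nor Cckbr overlapped between the groups, and their log2 differences were -2.37 ± 0.34 and -1.92 ± 0.26 (SE, limma adjusted p = 0.000158 and 0.000112). Gpat3, which makes lysophosphatidic acid for triglyceride synthesis, had a log2 difference of -1.29 ± 0.19 (SE, limma adjusted p = 0.000229). Ccdc136, a coiled-coil protein, stayed well above the floor, with log2 levels of 9.02, 9.20 and 9.42 in P28 +/+;CrxpNrl mice, against 9.90, 9.82, 9.82 and 9.72 in P28 +/+ mice (limma adjusted p = 0.00204). Without P28 +/+;CrxpNrl replicate 1 its adjusted p was 0.0629, while the other 5 called genes kept the call without any 1 mouse.

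The regulators of cone identity on that list did not pass the test. Thrb, the thyroid hormone receptor needed for the medium-wavelength opsin, had log2 levels of 5.73, 5.84 and 5.66 in P28 +/+;CrxpNrl mice, against 6.32, 6.16, 6.13 and 6.41 in P28 +/+ mice. Rxrg, the retinoid X receptor of cones, had log2 levels of 6.07, 6.18 and 5.95 in P28 +/+;CrxpNrl mice, against 6.31, 6.74, 6.38 and 6.47 in P28 +/+ mice. Sall3, a zinc finger factor of short-wavelength cones, had log2 levels of 5.60, 5.37 and 5.43 in P28 +/+;CrxpNrl mice, against 5.94, 6.27, 5.81 and 5.72 in P28 +/+ mice. The groups did not overlap in any of these 3 genes, as in 6.88% of all genes with the transgene lower, and their log2 differences were -0.51, -0.41 and -0.47 (limma adjusted p = 0.431, 0.325 and 0.173). Tbx2, a T-box factor of short-wavelength cones, and Slc24a2, the cone sodium, calcium and potassium exchanger, overlapped, with log2 differences of -0.06 and 0.04.

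Rod genes gave no call in either direction. The rod phototransduction list had 0 of 10 measured members called, a median log2 difference of 0.01 and log2 differences between -0.10 and 0.26, beside a median of -0.01 over all genes. The mean log2 level of the list lay between 12.68 and 12.77 in P28 +/+;CrxpNrl mice and between 12.57 and 12.76 in P28 +/+ mice. Gnat1 had log2 levels of 14.00, 13.96 and 14.00 in P28 +/+;CrxpNrl mice, against 14.03, 13.98, 13.96 and 13.94 in P28 +/+ mice, close to the array maximum, where a rise could not be seen. Pde6b, a catalytic subunit of the phosphodiesterase of rods, had log2 levels of 13.39, 13.42 and 13.47 in P28 +/+;CrxpNrl mice, against 13.04, 13.10, 13.32 and 13.31 in P28 +/+ mice (limma adjusted p = 0.954). The spread behind that p was pooled over all 8 groups. With the replicate block in only the compared groups, the log2 difference of Pde6b was 0.27 ± 0.06 (SE, limma adjusted p = 0.154). Of the 10 rod phototransduction genes, 2 did not overlap and were higher with the transgene and 0 were lower, where 3.91% and 6.88% of all genes were. Other rod-enriched genes gave 0 calls of 10 measured with a median log2 difference of 0.02, and genes that rods and cones share gave 0 calls of 9 with a median of 0.01.

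Nrl, Crx and Rorb did not pass the test. Nrl had log2 levels of 13.32, 12.99 and 13.37 in P28 +/+;CrxpNrl mice, against 13.36, 13.09, 13.32 and 13.28 in P28 +/+ mice (log2 difference -0.04 ± 0.43, SE, limma adjusted p = 0.994). With the replicate block in only the compared groups the Nrl difference was -0.03 ± 0.05 (SE, limma adjusted p = 0.858). Its probes do not tell the transgene's RNA from that of the mouse's own gene, and its level was high on the scale of the array in both groups, so these values do not check the labels. Crx, whose promoter drives the transgene, had log2 levels of 12.19, 12.32 and 12.31 in P28 +/+;CrxpNrl mice, against 12.35, 12.34, 12.29 and 12.34 in P28 +/+ mice (limma adjusted p = 0.962). Rorb had log2 levels of 11.06, 10.84 and 11.18 in P28 +/+;CrxpNrl mice, against 10.68, 10.39, 10.81 and 10.45 in P28 +/+ mice (log2 difference 0.45, limma adjusted p = 0.517), and its other 2 probe sets differed by 0.00 and 0.10. The Rorb levels did not overlap between the groups, and with the replicate block in only the compared groups the log2 difference was 0.40 (limma adjusted p = 0.0387), against 0.758 with the block over all arrays. Over the list of photoreceptor transcription factors, 0 of 14 measured genes were called and the median log2 difference was -0.04.

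Prph2, the peripherin of outer segment discs, had the largest log2 difference in the positive direction of all genes, 2.85, but it did not pass the test (limma adjusted p = 0.541). Its log2 levels were 10.05, 9.10 and 12.78 in P28 +/+;CrxpNrl mice, against 6.66, 8.05, 8.86 and 7.59 in P28 +/+ mice. The groups did not overlap, but they spread widely within each genotype. The other 15 measured members of the outer segment list had log2 differences between -0.35 and 0.16, and 0 of the 16 were called.

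Among the other cells of the retina, none of the lists held a gene called in the fit over all arrays. The horizontal cell list had the highest median log2 difference among the neuronal and glial lists, 0.33, with 6 of 8 members positive and 4 of 8 without overlap and higher with the transgene, where 3.91% of all genes were. Lhx1, a homeobox factor of horizontal cells, had log2 levels of 6.55, 6.99 and 6.80 in P28 +/+;CrxpNrl mice, against 5.83, 6.23, 6.05 and 5.68 in P28 +/+ mice. Its log2 difference of 0.83 ± 0.19 missed the threshold (SE, limma adjusted p = 0.0598), and another of its probe sets gave 0.63. Onecut1, a factor needed for horizontal cells, had log2 levels of 6.69, 6.75 and 7.03 in P28 +/+;CrxpNrl mice, against 5.83, 5.89, 6.32 and 5.75 in P28 +/+ mice (log2 difference 0.87, limma adjusted p = 0.228). With the replicate block the adjusted p was 0.228 for Lhx1 and 0.521 for Onecut1 over all arrays, and 0.0311 and 0.0231 in only the compared groups, where both were called higher. At P14 the log2 difference of Onecut1 had the other sign, -0.53. The medians of the cone bipolar, rod bipolar, amacrine, ganglion and Müller glia lists were 0.10, -0.11, 0.04, 0.06 and -0.06, with 0 called of 13, 11, 21, 17 and 17 measured members. The photoreceptor ribbon synapse list had 0 called of 16 and a median of 0.01.

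**Figure D3:**
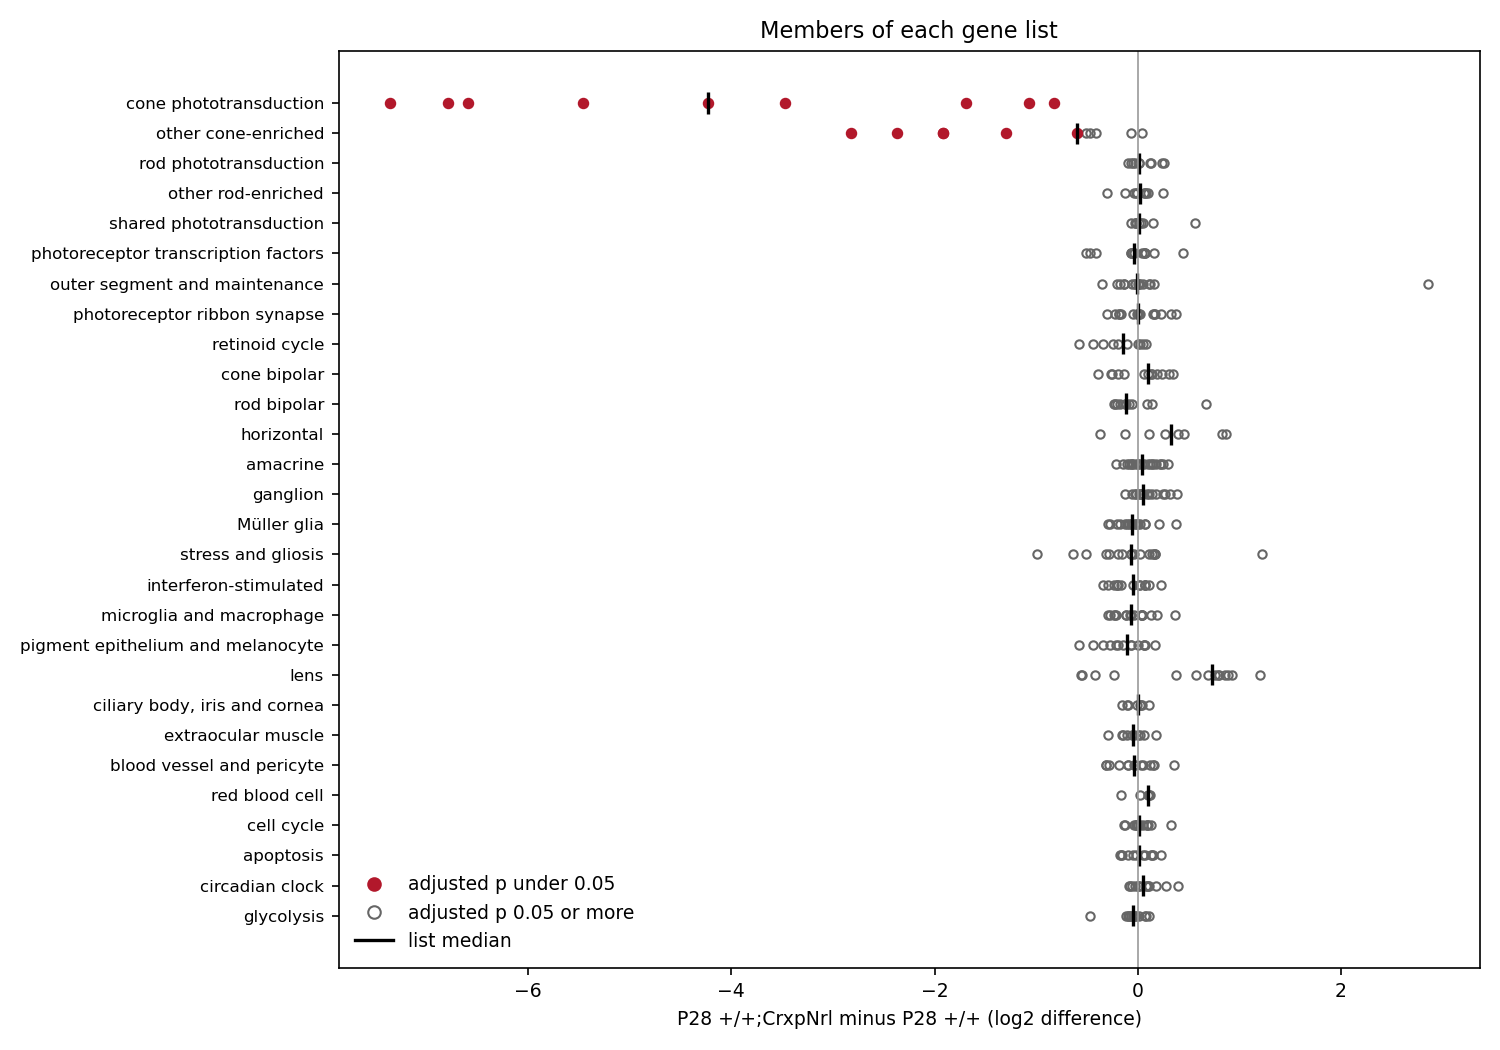
Each point is a measured member of a gene list, at its log2 difference (P28 +/+;CrxpNrl minus P28 +/+), with a black bar at the median of the list. Called members (red) occur in the 2 cone lists only, the other lists lie around 0, and the median of the lens list, 0.73, comes with 0 called genes.

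Markers of stress, immune cells and neighbouring tissue gave 0 calls too. The stress and gliosis list had a median log2 difference of -0.07 over 17 genes, with Serpina3n, an acute phase protein of reactive astrocytes, at 1.23 (limma adjusted p = 0.455) and Socs3, a feedback inhibitor of cytokine signalling, at -0.99 (limma adjusted p = 0.145). The microglia and macrophage list and the interferon list had medians of -0.06 and -0.05 over 17 and 15 measured genes. Lens RNA varied between mice within both groups: the mean log2 level of the lens list lay between 7.88 and 8.78 in P28 +/+;CrxpNrl mice and between 6.22 and 10.8 in P28 +/+ mice. The pigment epithelium list lay between 6.40 and 6.65 in P28 +/+;CrxpNrl mice and between 6.31 and 7.32 in P28 +/+ mice. The lists of the retinoid cycle, ciliary body, iris and cornea, extraocular muscle, blood vessels, red blood cells, cell cycle, apoptosis, circadian clock and glycolysis had 0 called genes and medians between -0.15 and 0.10.

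Outside all lists, 8 genes were at least 2-fold lower in P28 +/+;CrxpNrl retinas. Klhl4, of the kelch-like family, had log2 levels of 4.60, 4.93 and 4.27 in P28 +/+;CrxpNrl mice, against 6.34, 6.43, 6.43 and 6.56 in P28 +/+ mice (log2 difference -1.84 ± 0.16, SE, limma adjusted p = 1.26e-08). Gzmm, a granzyme known from natural killer cells, had log2 levels of 7.34, 7.75 and 7.71 in P28 +/+;CrxpNrl mice, against 9.55, 9.18, 9.15 and 8.79 in P28 +/+ mice (log2 difference -1.57 ± 0.20, SE, limma adjusted p = 3.25e-05). Both were separated between the groups by more than the range within either. Ccl9, a chemokine, and Tecrl, of the enoyl reductase family, had log2 differences of -1.38 ± 0.27 and -1.02 ± 0.16 (SE, limma adjusted p = 0.0140 and 0.000509). Erich6, Qsox1, Gckr and Gulo were named after their values were seen. Gulo, the last enzyme of vitamin C synthesis in the mouse, had log2 levels of 5.90, 6.32 and 6.15 in P28 +/+;CrxpNrl mice, against 7.17, 6.95, 7.16 and 7.54 in P28 +/+ mice (limma adjusted p = 0.0103). Gckr, the regulatory protein of glucokinase, had log2 levels of 7.22, 7.45 and 7.06 in P28 +/+;CrxpNrl mice, against 8.30, 8.37, 8.24 and 8.67 in P28 +/+ mice (limma adjusted p = 0.0381). Qsox1, a sulfhydryl oxidase, and Erich6 had log2 differences of -1.20 ± 0.23 and -1.47 ± 0.27 (SE, limma adjusted p = 0.0132 and 0.00829), and the mean of all probe sets of Qsox1 gave -0.47. With the replicate number as a block over all arrays, the limma adjusted p was 0.0914 for Gulo, 0.213 for Gckr and 0.0879 for Qsox1. With the block in only the compared groups it was 0.0343, 0.00148 and 0.00679, so these calls depended on which arrays were fitted. Klhl4, Gzmm and Tecrl kept the call when any 1 mouse was left out. Tecrl lost the call with the replicate block in only the compared groups (limma adjusted p = 0.0767). Gckr lost it without any 1 of the 7 mice, Erich6 without P28 +/+;CrxpNrl replicate 1 (limma adjusted p = 0.143), and Ccl9, Gulo and Qsox1 in 3 of the 7 fits that left out 1 mouse, that without P28 +/+;CrxpNrl replicate 1 among them (limma adjusted p = 0.185, 0.143 and 0.0624).

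A further 15 genes were lower by less than 2-fold, among them Gnb3 and Ccdc136, with log2 differences down to -0.95 for Ppm1j, a protein phosphatase (named after its values were seen). Only 4 genes were called higher. Ccdc191 had log2 levels of 5.66, 5.28 and 5.70 in P28 +/+;CrxpNrl mice, against 4.36, 4.45, 4.99 and 4.57 in P28 +/+ mice, with a log2 difference of 0.95 ± 0.20 (SE, limma adjusted p = 0.0345). Fry, the mouse form of a fruit fly gene for cell shape, had log2 levels of 8.88, 8.90 and 9.07 in P28 +/+;CrxpNrl mice, against 8.49, 8.52, 8.42 and 8.30 in P28 +/+ mice (limma adjusted p = 0.0144). Wdr6, a WD repeat protein, had a log2 difference of 0.29 ± 0.06 (SE, limma adjusted p = 0.0234), and 5730552O08Rik, named after its values were seen, one of 0.81 ± 0.18 (SE, limma adjusted p = 0.0487). With the block by replicate number over all arrays, the limma adjusted p was 0.0914 for Ccdc191, 0.108 for Fry, 0.111 for Wdr6 and 0.0125 for 5730552O08Rik. With the block in only the compared groups it was 0.0462, 0.0774, 0.136 and 0.0551, in that order. Fry and Wdr6 were thus called in neither blocked fit, while the calls of Ccdc191 and 5730552O08Rik depended on which arrays were fitted. The rises also rested on the probe set read for each gene. With the mean of all probe sets the log2 difference was 0.41 for Ccdc191, 0.15 for Fry, 0.18 for Wdr6 and 0.45 for 5730552O08Rik (limma adjusted p = 0.0860, 0.654, 0.469 and 0.144), and without probe sets of shared sequence it was 0.08 for Wdr6 (limma adjusted p = 0.914). Each of the 4 rises also lost the call in at least 3 of the 7 fits that left out 1 mouse, with the highest limma adjusted p between 0.186 and 0.463.

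The same contrast at P14, in other mice, gave values beside which the P28 ones can be read. In those samples P14 +/+;CrxpNrl replicate 2 stood apart. It read Xist, expressed from the inactive X of females, at a log2 level of 8.03 and the Y-linked genes at a mean of 7.97, where each of the other 30 mice was high for 1 of these and near the floor for the other. Its log2 level of Opn1sw was 8.96, of Pde6h 8.25, of Arr3 7.08 and of Cngb3 7.18, above the other P14 +/+;CrxpNrl mice. Results with and without it are given.

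At P14, 15 genes (0.0824%) were called and at least 2-fold lower in +/+;CrxpNrl retinas, and all 15 were among the 21 at P28, 100% of the P14 list and 71.4% of the P28 list. Without P14 +/+;CrxpNrl replicate 2 the P14 count was 16, of which 15 were among the 21. At any fold, 20 genes were called lower (0.11%) and 3 higher (0.0165%) at P14, 23 in all against 40 at P28, and 16 were shared, 69.6% of the P14 list and 40% of the P28 list. All 21 P28 genes had a negative log2 difference at P14. The 6 that were not called 2-fold lower at P14 were Otop3 (P14 log2 difference -1.43, limma adjusted p = 0.0597), Erich6 (-0.92), Gckr (-0.66), Gulo (-0.59), Gngt2 (-0.56) and Qsox1 (-0.51). Without P14 +/+;CrxpNrl replicate 2, Otop3 had a P14 log2 difference of -1.64 (limma adjusted p = 0.0279), and Ccl9 missed the threshold with an adjusted p of 0.0503.

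The test of the difference between the ages called 0 genes by limma, with 938 genes (5.16%) at an unadjusted p under 0.05. In 17 of the 21 genes the P28 difference was the more negative, and in 16 of 21 without P14 +/+;CrxpNrl replicate 2. The 21 genes were picked by their fall at P28, which by itself favours a larger fall at that age. These counts therefore cannot show a trend with age. Opn1sw had a log2 difference of -5.65 at P14 and -7.35 at P28, an age difference of -1.70. Without P14 +/+;CrxpNrl replicate 2 that age difference was -0.70. Kcne2 and Opn1mw ran the other way, with log2 differences of -2.30 and -5.98 at P14, against which those at P28 were -1.91 and -5.46. Gnb3, with a log2 difference of -0.34 at P14 and -0.82 at P28, had an unadjusted age p of 0.000202. It did not pass the adjustment over all genes.

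**Figure D4:**
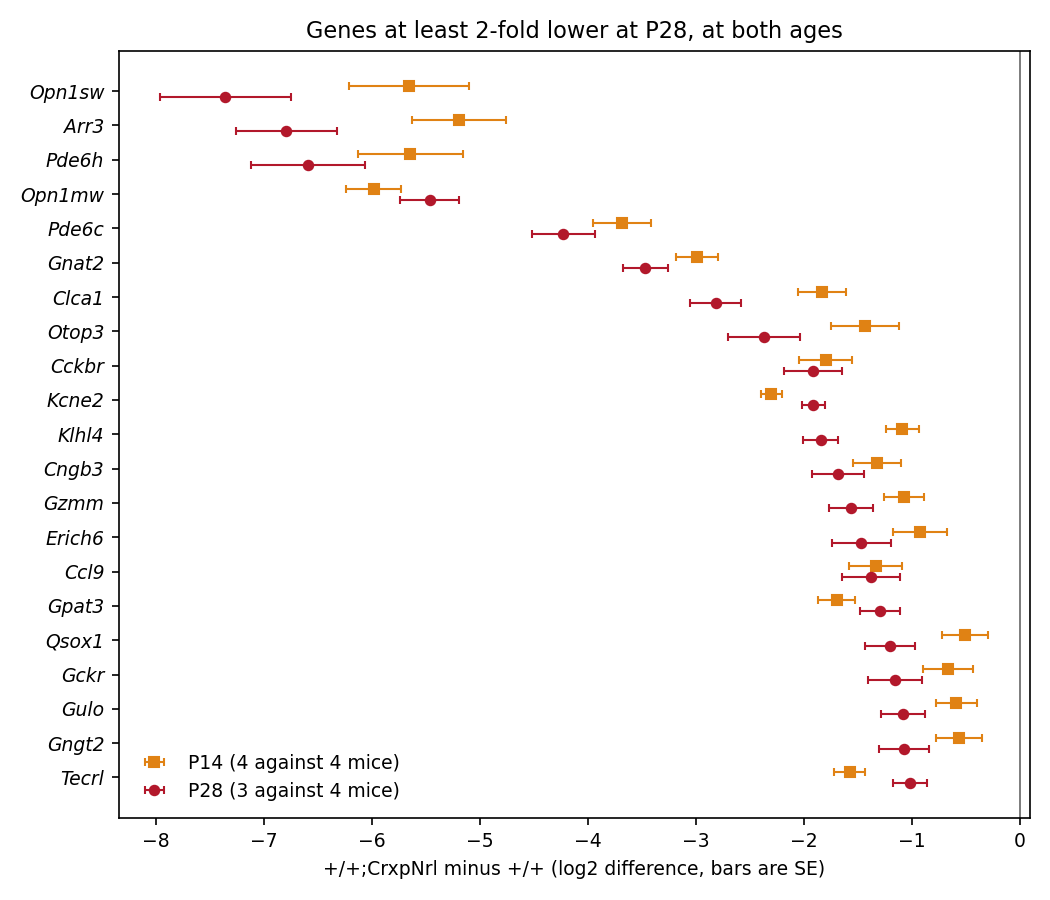
For each gene called and at least 2-fold lower at P28, the log2 difference (+/+;CrxpNrl minus +/+) is shown at P14 (squares, 4 against 4 mice) and at P28 (circles, 3 against 4 mice), with bars of 1 SE. All 21 genes lie left of 0 at both ages, and 0 genes passed the test of the difference between ages.

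The last comparison asked whether the transgene had the same effect at P28 in retinas without Rorb. There, Rorb-/-;CrxpNrl was set against Rorb-/-, and the test was the difference between that effect and the effect in +/+. In Rorb-/- retinas the transgene was called with 1359 genes lower (7.47%) and 2134 higher (11.7%). Crx was among those lower (log2 difference -1.11, limma adjusted p = 1.36e-05). So were 8 of 16 outer segment genes, with 0 higher, while rod phototransduction genes had 2 lower and 4 higher of 10. The 4 Rorb-/-;CrxpNrl mice were uneven. Their mean log2 levels of the outer segment list were 10.30, 9.97, 8.05 and 8.61, against 9.92 to 10.25 in Rorb-/- mice. The effects differed by at least 2-fold and passed the test in 131 genes more negative in Rorb-/- (0.72%) and in 42 more positive (0.231%). Of the 21 genes lower in +/+, 20 were called lower in Rorb-/- too, and in 10 the effects differed, 8 with the larger fall in Rorb-/-. The share of all genes whose effects differed at any fold was 2.52% more negative and 2.95% more positive.

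The cone genes split by how far they fell. Of 20 measured genes of the 2 cone lists the effects differed in 9, and 8 of those fell further in Rorb-/-. Kcne2 averaged a log2 level of 7.64 ± 0.17 in Rorb-/-;CrxpNrl and 11.37 ± 0.10 in Rorb-/- mice (SD, n = 4 each), against 7.93 ± 0.03 in +/+;CrxpNrl (n = 3) and 9.84 ± 0.05 in +/+ mice (n = 4). The level with the transgene was thus close in both Rorb genotypes while that without it was higher in Rorb-/-, and the effects differed by -1.82 ± 0.15 (SE, limma adjusted p = 5.19e-09). Ccdc136 averaged 9.13 ± 0.06 in Rorb-/-;CrxpNrl and 11.78 ± 0.09 in Rorb-/- mice (SD, n = 4 each), against 9.21 ± 0.20 in +/+;CrxpNrl (n = 3) and 9.81 ± 0.07 in +/+ mice (n = 4), on the log2 scale. Opn1mw averaged a log2 level of 5.11 ± 0.14 in Rorb-/-;CrxpNrl and 12.48 ± 0.08 in Rorb-/- mice (SD, n = 4 each), and its effects differed by -1.91 ± 0.37 (SE, limma adjusted p = 0.00254). Clca1, Gpat3, Gngt2, Gnb3 and Sall3 also fell further in Rorb-/-, with differences between the effects of -2.07, -1.95, -1.49, -0.61 and -1.24 on the log2 scale. Clca1, Gpat3 and Gngt2 averaged log2 levels of 10.63, 8.91 and 7.86 in Rorb-/- mice and 6.11, 5.59 and 5.33 in +/+ mice. With the transgene they averaged 5.74, 5.67 and 5.30 in Rorb-/-;CrxpNrl mice. In +/+;CrxpNrl mice they averaged 3.29, 4.29 and 4.25, near or below the floor, so their falls in +/+ may be understated.

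Arr3 fell less in Rorb-/-. Its log2 levels averaged 8.74 ± 0.86 in Rorb-/-;CrxpNrl and 13.15 ± 0.15 in Rorb-/- mice (SD, n = 4 each), against 4.42 ± 0.08 in +/+;CrxpNrl (n = 3) and 11.21 ± 0.07 in +/+ mice (n = 4). The effects differed by 2.38 ± 0.64 (SE, limma adjusted p = 0.0243), and the Rorb-/-;CrxpNrl mice ranged from 8.0 to 9.82, all above every +/+;CrxpNrl mouse. Without P28 +/+;CrxpNrl replicate 1 the adjusted p of this difference was 0.0582. The other 8 cone genes kept theirs when any 1 of the 15 mice was left out. Pde6h averaged 8.89 ± 0.82 in Rorb-/-;CrxpNrl mice (SD, n = 4) and 4.78 ± 0.20 in +/+;CrxpNrl mice (SD, n = 3) on the log2 scale, but its effects did not differ past the threshold (limma adjusted p = 0.0741). Nor did those of Opn1sw, Gnat2, Pde6c, Cngb3, Otop3 and Cckbr pass (limma adjusted p between 0.103 and 0.940). Gnat2 fell by 3.40 in Rorb-/- and by 3.47 in +/+ on the log2 scale. In Rorb-/- mice Opn1sw averaged a log2 level of 13.63, Gnat2 13.30 and Arr3 13.15, near the array ceiling, so falls from there may be understated.

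**Figure D5:**
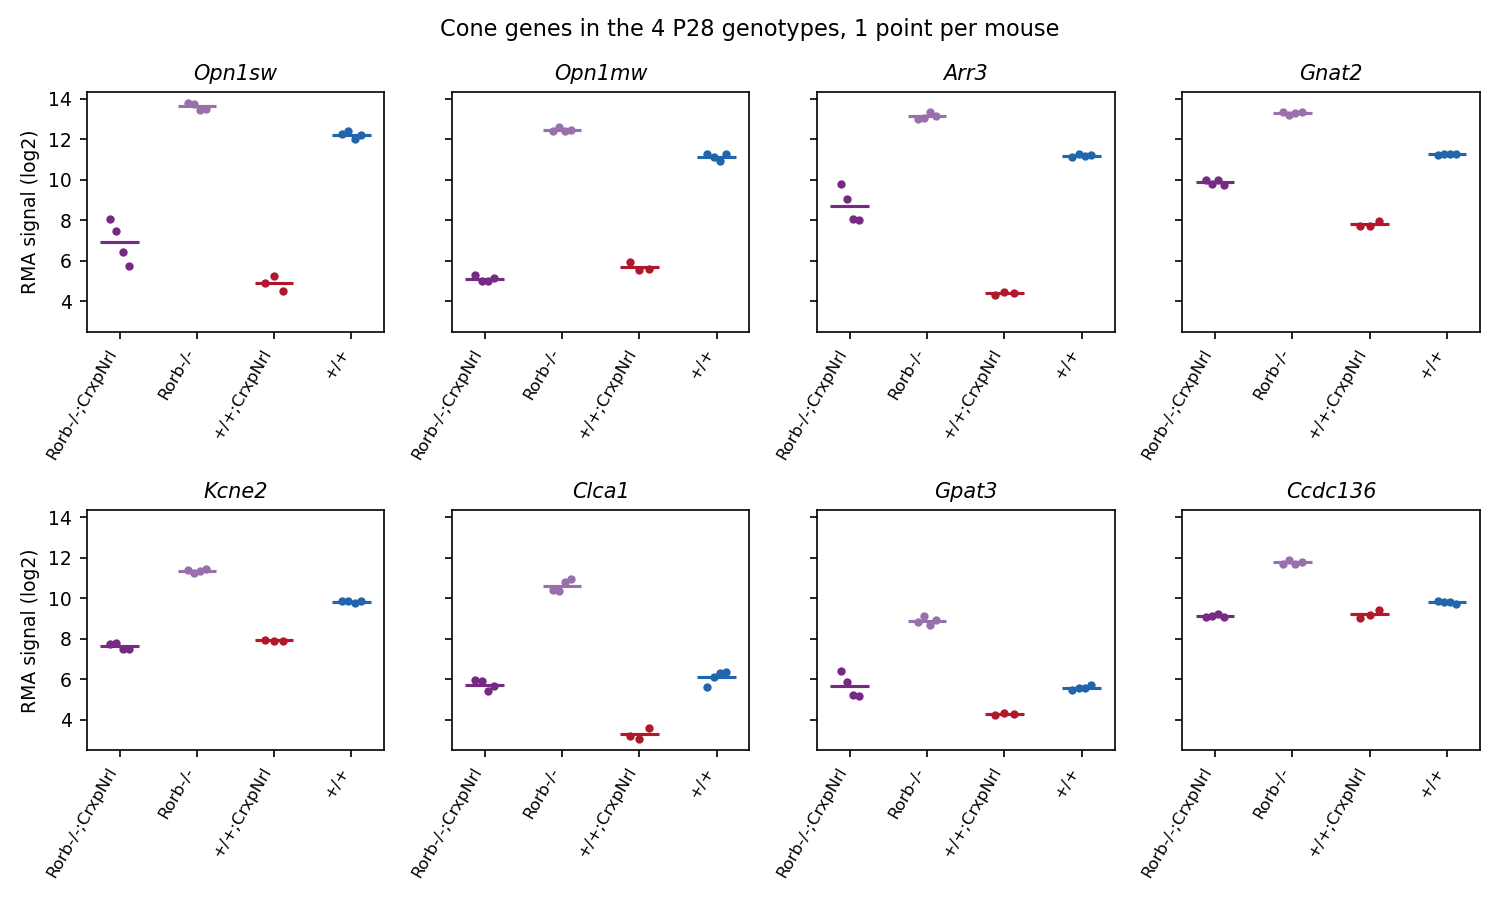
Log2 RMA levels of 8 cone genes at P28 are shown with 1 point per mouse and a bar at each mean, in Rorb-/-;CrxpNrl, Rorb-/-, +/+;CrxpNrl and +/+ mice from left to right. Kcne2 and Ccdc136 reach similar levels with the transgene in both Rorb genotypes, whereas Arr3 stays between 8.0 and 9.82 in Rorb-/-;CrxpNrl mice and lies below 4.5 in +/+;CrxpNrl mice.

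Among genes that passed the test of the difference, the 6 largest differences between the effects in each direction were in 12 genes, of which Arr3 alone was called in +/+ retinas. Slco1a5, an organic anion transporter, averaged a log2 level of 3.96 in Rorb-/-;CrxpNrl and 8.01 in Rorb-/- mice, against 3.88 in +/+;CrxpNrl and 3.76 in +/+ mice, at or below the floor in both. Tph1, the tryptophan hydroxylase that begins serotonin and melatonin synthesis, averaged 4.23 in Rorb-/-;CrxpNrl and 7.81 in Rorb-/- mice, against 3.86 in +/+;CrxpNrl and 3.73 in +/+ mice, on the log2 scale. The next 4 were Poteg, Fabp7, Myocd and Pik3ap1, with differences between the effects of -3.47, -3.24, -2.88 and -2.83. In the positive direction, Samd11, a photoreceptor chromatin protein, averaged 9.0 in Rorb-/-;CrxpNrl and 7.33 in Rorb-/- mice, against 11.14 in +/+;CrxpNrl and 11.21 in +/+ mice, on the log2 scale. Gbp2b, a guanylate-binding protein, Calcb, a calcitonin gene-related peptide, Tes and Hpgd had differences of 2.84, 1.51, 1.45 and 1.44. Gbp2b and Calcb lost the call in 11 and in 3 of the 15 fits that left out 1 mouse (limma adjusted p up to 0.0905 and 0.0611), and the other 9 of the 12 apart from Arr3 kept it. Outside the lists, Gulo, Gckr and Gzmm had differences between the effects of -2.01, -1.16 and -0.95, of which those of Gckr and Gzmm lost the call in 10 of those 15 fits each (limma adjusted p up to 0.108 and 0.106). Tecrl averaged a log2 level of 3.62 in Rorb-/-;CrxpNrl and 3.53 in Rorb-/- mice, both below the lower quartile of the arrays.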

How the data were processed

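Total RNA from both retinas of each of 31 mice was read on 1 Affymetrix array per mouse. The authors deposited log2 RMA values (the submitters' processing notes name RMA without a version), and these were not normalized further. All values of 8 groups entered 1 fit of group means with limma 3.58.1 (R 4.3.3, empirical Bayes with a trend in the prior variance), and p-values were adjusted by Benjamini-Hochberg over 18193 genes. Of 45101 probe sets, 34958 had 1 gene symbol, 932 several and 9211 none by GEO's platform annotation. After control probe sets were left out, 34945 remained, and each gene was read from whichever of its probe sets was brightest on average across the arrays. A change required an adjusted p under 0.05 and at least 2-fold, and a named or listed gene an adjusted p under 0.05. The number of arrays limits the precision. Columns of no sample numbered 0.

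The members and the gene lists were chosen with earlier results of these data known. The text names Nrl, Rorb and Crx, the 12 largest rises and falls among called genes without overlap between the groups (symbols of the Rik kind left out), every gene of the cone lists, up to 4 genes of each other list, every gene changed 2-fold at P14 and the 6 largest differences each way between the Rorb genotypes. Alternatives were other scalings, probe set rules, filters, priors, weights, covariates, sample sets and leaving out each mouse.

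Replicate numbers were checked for pairing in the P28 +/+;CrxpNrl and P28 +/+ mice. Deviations from the group means correlated between same-numbered mice by 0.21 to 0.37 and between other pairs by -0.28 to 0.17. On the data alone, as no label says so, the numbers were taken to pair the samples and used as a block in alternative fits. The main fit, behind the counts and most p-values given, did not use this pairing. Without genes of the X and Y chromosomes the same-numbered values were 0.16 to 0.33. Replicate 1 of both groups was high for Xist and replicates 2 and 3 for the Y-linked genes. The labels give no array batch or date. Promoter sequences are those of RefSeq on GRCm38.p6, and the build behind the array annotation is not given in the sources used here.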

Additional observations from a re-analysis of the deposited data

Results flagged for a closer look

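Single mice stood far from the rest of their group in some genes, a gap that chance gives in about 1 group in 20. In P28 +/+ mice this held for 2 of 31 genes tested: replicate 1 had a log2 level of Gnb3 of 11.11 where the others had 11.24 to 11.25, and replicate 4 had a log2 level of Pde6c of 9.24 where the others had 10.10 to 10.23. In P14 +/+;CrxpNrl mice it held for 5 of 21 genes. Replicate 2 had log2 levels of 8.96 for Opn1sw, 8.25 for Pde6h, 7.20 for Pde6c and 7.18 for Cngb3, above ranges in the others of 4.80 to 5.18, 4.70 to 4.93, 5.90 to 6.02 and 6.27 to 6.41. Replicate 3 had a log2 level of Gckr of 7.44, below 7.75 to 7.82 in the others.

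The transgene effect at P28 differed between Rorb-/- and +/+ retinas, by the limma test of the difference, in the following genes, given as the log2 effect in Rorb-/- minus that in +/+. On the cone lists the values were 2.38 for Arr3, -2.07 for Clca1, -2.05 for Ccdc136, -1.95 for Gpat3, -1.91 for Opn1mw, -1.82 for Kcne2, -1.49 for Gngt2, -1.24 for Sall3 and -0.61 for Gnb3. Among the other genes lower in +/+ they were -2.01 for Gulo, -1.16 for Gckr, -0.95 for Gzmm and 1.11 for Tecrl. Among the largest differences of all genes they were -4.17 for Slco1a5, -3.71 for Tph1, -3.47 for Poteg, -3.24 for Fabp7, -2.88 for Myocd and -2.83 for Pik3ap1, and 2.84 for Gbp2b, 1.75 for Samd11, 1.51 for Calcb, 1.45 for Tes and 1.44 for Hpgd.

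A probe set without a gene symbol, 1443066_at, averaged a log2 level of 4.48 in P28 +/+;CrxpNrl mice and 6.63 in P28 +/+ mice, a log2 difference of -2.15.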

How the results depend on the processing

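Over 18 settings of the P28 comparison, 0 of 2731 pairs of a gene and a setting turned the sign of a difference that was called, while some differences that were not called changed sign. Of the 40 called genes, 16 were called in every setting and 24 lost the call in at least 1, and 5 of 115 genes not called gained one. The 21 genes changed at least 2-fold became 40 with no fold requirement, 18 with the replicate block, 24 with the replicate block in only the compared groups, and 14 to 20 when 1 mouse was left out. The lowest was without P28 +/+;CrxpNrl replicate 1. When 1 mouse was left out, the cone phototransduction list gave 8 calls, by the loss of Gngt2, and the other cone-enriched list 5 to 6. Calls on all other lists, 0 as reported, were 1 with quantile normalization, 1 with the mean of all probe sets, 2 with array weights, 1 with only the compared groups, 4 with the replicate block in only the compared groups, and 0 to 1 when 1 mouse was left out. The genes gained were Lhx1, Abca8a, Onecut1, Rorb and Socs3. The P14 count of 15 became 23 with no fold requirement, 15 with the replicate block and 14 to 17 when 1 mouse was left out. It was 12 with the mean of all probe sets and 19 with array weights. The age difference stayed at 0 with the replicate block, and gave 0 to 2 when 1 mouse was left out (1 without P14 +/+ replicate 1, 2 without P28 +/+ replicate 2 and 1 without P28 +/+;CrxpNrl replicate 2). The 173 genes whose effect differed between Rorb genotypes became 305 with array weights, 996 with no fold requirement, 599 at 1.5-fold and 201 with the replicate block. They became 116 with the replicate block in only the compared groups, 124 with only the compared groups and 136 without the dimmest 40% of genes. Leaving out 1 mouse gave 140 to 283, the highest without P28 Rorb-/-;CrxpNrl replicate 1. By the check of deviations, same-numbered P14 +/+;CrxpNrl and P14 +/+ mice correlated by 0.01 to 0.23, and other pairs by -0.27 to 0.16. At P28, same-numbered Rorb-/-;CrxpNrl and Rorb-/- mice correlated by 0.06 to 0.15, and other pairs by -0.22 to 0.09. No threshold was set, so whether these numbers pair the mice was not decided. Beyond the calls whose blocked p stands beside them, the block over all arrays also lost Cdk6, Stn1, Dynlt3, Eif3b, Jam3, Ndufs5 and Tceanc2. The block in only the compared groups kept Cdk6 and lost Fzd6, Stn1, Dynlt3, Eif3b, Jam3, Ndufs5 and Tceanc2. Pde6c and Kcne2 have only probe sets of shared sequence and have no value without those. Testing every probe set separately, chosen after seeing the data, gave 25. The cause of these moves was not tested. Signal near the floor or the ceiling of the arrays limits what folds can show.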

Other observations

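Tested by probe set rather than by gene, 25 of 45037 probe sets were at least 2-fold lower in P28 +/+;CrxpNrl than in P28 +/+ retinas by limma and 0 were higher. They belonged to 19 named genes, apart from 1 without a symbol. Probe sets of 1 gene differed in size: for Opn1sw another probe set averaged a log2 difference of -3.17, and for Clca1 the other one gave 0.12, with log2 levels of 3.22 in P28 +/+;CrxpNrl and 3.10 in P28 +/+ retinas, below the lower quartile of the arrays.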
